A study of Homo sapiens with 20 samples.

Results

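The 4 libraries described here compare H3K27ac with and without oxaliplatin (OXPT), a platinum drug that forms adducts and crosslinks on DNA, in HCT-116 colorectal cancer cells that lack FBXW7 and in which HDAC4 was silenced. They were chosen by label as the OXPT-treated and the untreated (UNT) FBXW7-/- cells transfected with enzymatically prepared siRNA against HDAC4 (esiHDAC4), and they are 4 of the 16 libraries of the series with peak lists. Both groups carried the FBXW7-/- genotype and received esiHDAC4 for 48 h, and the treated group also received 50 µM OXPT for the last 24 h. Each group had 2 libraries, replicates A and B, and the libraries with the same letter are called pair A and pair B below. The study's methods describe the replicates as biological, and the labels state that 3 independent experiments were pooled without saying how these relate to the letters, so the p-values below measure the spread between these samples only. No source used here says whether the knockout line derives from a single clone.

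FBXW7 is the substrate-recognition subunit of an SCF ubiquitin ligase that marks proteins such as MYC, cyclin E and JUN for degradation. HDAC4 is a class IIa histone deacetylase that binds MEF2 factors and acts mainly as a scaffold for repressor complexes. H3K27ac marks active promoters and enhancers, and dense clusters of such enhancers are called super-enhancers (SEs). DNA damage stabilizes p53, which induces genes of cell cycle arrest such as CDKN1A, of its own feedback such as MDM2, and of cell death such as BBC3. The comparison asks which regions carried the mark with and without the drug when both FBXW7 and HDAC4 were reduced.

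The 4 lists differed strongly in length, and the direction of the difference was opposite in pairs A and B. On chromosomes 1 to 22 and X, UNT A held 21290 peaks and OXPT A 18343, whereas UNT B held 1752 and OXPT B 6083. The SE lists followed the same order, with 562 in UNT A, 400 in OXPT A, 66 in UNT B and 187 in OXPT B. Depth was read from the deposited values, because fold and p of a peak come from the same whole number of summit reads and the same local background. The low end of the background (1st percentile over peaks) was 2.26 reads in UNT A, 2.89 in OXPT A, 1.02 in UNT B and 1.51 in OXPT B. OXPT A thus had a higher background than UNT A but a shorter list, and UNT B was the shallowest library with the shortest list. At that background the lowest summit fold that could be called was 3.07 in UNT A, 3.96 in UNT B, 3.09 in OXPT A and 3.58 in OXPT B. Where the local background was higher, lower folds could be called. The lowest called fold was 1.31 in UNT A, 1.54 in UNT B, 1.23 in OXPT A and 1.33 in OXPT B. The part of depth in the differences between lists was not tested, and each pair is therefore shown apart. A region missing from a list is not shown to lack the mark.

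**Figure D1:**
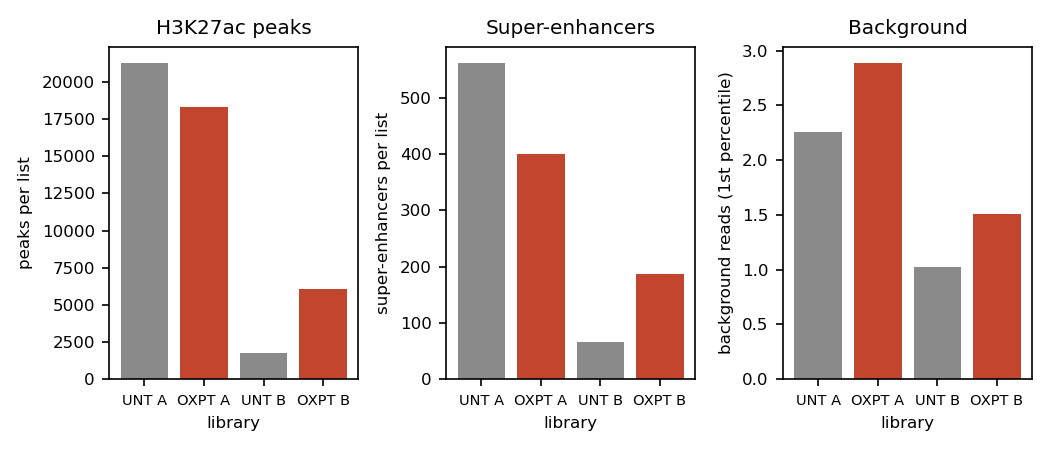
Peaks, super-enhancers and background reads (1st percentile over the peaks) of the 4 libraries of FBXW7-/- esiHDAC4 cells, 1 bar per library, grey for UNT and red for OXPT. In pair A the OXPT list is the shorter one, 18343 against 21290 peaks, and in pair B the longer one, 6083 against 1752.

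Start-site peaks were compared with markers of the labelled tissue. Of 12 epithelial markers, 11 had a peak within 1 kb of a start site in UNT A, among them EPCAM, KRT8, KRT18 and CDX2. In UNT B 1 marker had one, in OXPT A 9 and in OXPT B 6, with VIL1 and KLF5 in neither OXPT list. Among 19962 protein-coding genes, 8614 had such a peak in UNT A and 401 in UNT B. In OXPT A it was 6927 genes and in OXPT B 2047. Of 14 markers of other cell types, 2 had such a peak, COL1A1 with a fold of 4.59 and INS with 4.11, both in UNT A alone among the 4 (COL1A1 was also called in 5 of 6 OXPT and 5 of 6 UNT libraries of the other groups), and PTPRC, CD3E, PECAM1 and ALB had none in any of the 4 libraries. At the FBXW7 start the summit fold, which is the pileup at the summit over the local background, was 5.03 in UNT A and 4.94 in OXPT A. At the HDAC4 start it was 4.19 and 3.43. Neither gene had a start-site peak in UNT B or OXPT B. Acetylation at these starts checks neither the knockout nor the silencing, since the knockout is a small deletion whose position was not used here and siRNA acts on the transcript. Over the whole HDAC4 gene 11 peaks were listed in UNT A, 1 in UNT B, 11 in OXPT A and 4 in OXPT B.

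Merging the 4 lists gave 29044 regions, of which 459 were called in both OXPT libraries and in neither UNT library (gained, 1.58% of all regions). In the opposite direction, 61 were called in both UNT libraries and in neither OXPT library (lost, 0.210%). All 4 lists shared 719 regions. The count of gained regions rested on UNT A more than on UNT B: it was 469 without UNT B but 2907 without UNT A, 1581 without OXPT A and 7083 without OXPT B. The count of lost regions was 10411 without UNT B, 365 without UNT A and 245 without OXPT A. With each list reduced to its 1752 strongest peaks, 158 regions were gained and 84 were lost.

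Within pair A, 7091 regions were gained, 10770 were lost and 9957 were shared. Within pair B, 4112 were gained, 518 were lost and 765 were shared. Most regions gained in one pair were not gained in the other. Of those gained in pair A, 6.47% were also gained in pair B, 93.0% had no peak in pair B, and 24 regions were lost there. Of the regions shared in pair A, 23.7% (2362 regions) were gained in pair B, and of those lost in pair A, 3.16% (340 regions) were gained in pair B. Summits were lower in changed than in shared regions of pair A. There the median fold was 3.39 for gained regions and 3.60 for lost ones, against 3.97 in OXPT A and 4.47 in UNT A for the shared regions.

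Regions gained in both pairs lay mostly away from promoters. Of the 459, 26.8% came within 1 kb of a start site of a protein-coding gene, 33.6% were intronic, 33.1% intergenic and 6.54% exonic. Among all 29044 regions 41.7% were at a start site, and among the 61 lost regions 44.3% were. The gained regions had a median width of 669 bp, compared with 510 bp for all regions and 2777 bp for those called in all 4 lists. Promoter shares differed between the pairs. Start sites made up 25.9% of the regions gained in pair A and 44.1% of those gained in pair B.

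**Figure D2:**
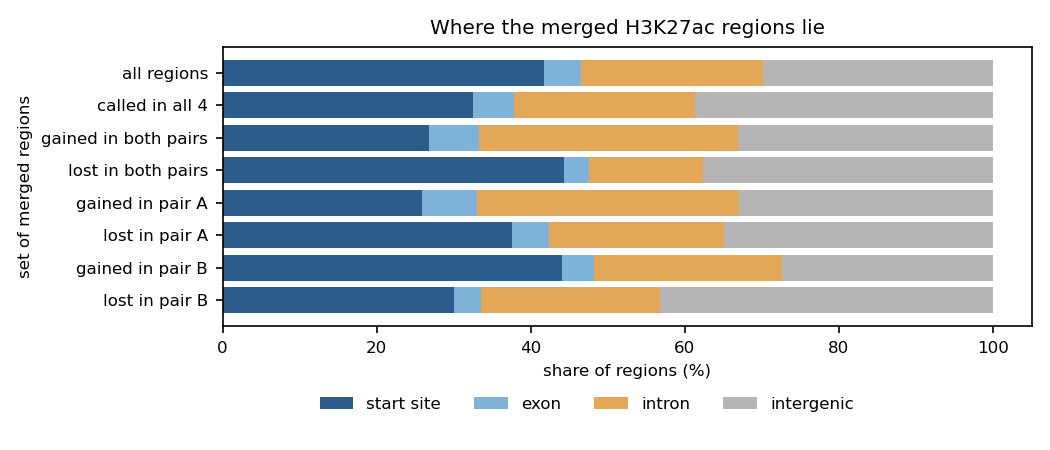
Share of merged H3K27ac regions (%) at a start site, in an exon, in an intron or between genes, 1 bar per set of regions. Start sites make up 26.8% of the regions gained in both pairs and 44.3% of those lost in both.

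ATF3, which encodes a stress-induced transcription factor of the ATF/CREB family, held the gained region that ranked first when regions were ordered by the lower of their OXPT folds. This intronic region spans 1379 bp, 10.9 kb from the nearest ATF3 start site. Its summit fold was 7.63 in OXPT A, from 33 reads, and 7.27 in OXPT B, from 27 reads, with no peak in UNT A or UNT B. It was called in 6 of 6 OXPT libraries and 3 of 6 UNT libraries of the other groups. The region over the ATF3 start, in contrast, had a fold of 6.87 in UNT A, none in UNT B, 2.83 in OXPT A and 3.76 in OXPT B, and a neighbouring one 0.523 kb from a start had 3.09 in UNT A and 4.25 in OXPT A.

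Of the gained regions next in this order, those described here lay near IGFL3, GALNT7, NUDT12, C1GALT1, CERS1 and MCPH1. At the intergenic region 8.16 kb from IGFL3 the fold was 6.30 in OXPT A and 7.24 in OXPT B. An intronic region with the start of GALNT7, which encodes an enzyme of mucin-type O-glycosylation, as the nearest one had 6.30 and 6.08. A neighbouring gained region lay 187 kb from that start, so the name gives the nearest gene only and the intron need not be that of GALNT7. An intron region 5.52 kb from a start of C1GALT1, which also acts in O-glycan synthesis, had 6.28 and 5.75. The region near NUDT12 lay 518 kb from its start and was called in all of the 12 other libraries, with or without the drug. In contrast, the region near CERS1, a ceramide synthase gene, was called in none of them and had folds of 5.69 and 6.80. The MCPH1 region (5.64 and 5.46) was called in 3 of the 6 other OXPT libraries and in no other UNT library. Just below the 8 leading regions, that near NR3C1 had 5.65 and 5.42.

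Sequence around the summit is shown for the ATF3, IGFL3 and C1GALT1 regions as the leading gained regions that hold a searched motif, for the CDKN1A region described below, and for the leading lost region near RUBCN. Each run is the plus strand of hg38, 201 bases centred on the summit with the highest fold, and lies outside annotated exons. Capitals mark matches on either strand to TGANTCA (AP-1), TGACGTCA (CRE), GGAATG (TEAD), GTAAACA (FOX), CACGTG (E-box), GGGCGG (GC box) or the p53 decamer.
ATF3 region, chr1:212596827-212597027: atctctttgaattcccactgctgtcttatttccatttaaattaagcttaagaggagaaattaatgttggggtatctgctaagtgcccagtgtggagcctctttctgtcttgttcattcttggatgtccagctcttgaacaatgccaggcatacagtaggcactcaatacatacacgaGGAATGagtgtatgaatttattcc
IGFL3 region, chr19:46134067-46134267: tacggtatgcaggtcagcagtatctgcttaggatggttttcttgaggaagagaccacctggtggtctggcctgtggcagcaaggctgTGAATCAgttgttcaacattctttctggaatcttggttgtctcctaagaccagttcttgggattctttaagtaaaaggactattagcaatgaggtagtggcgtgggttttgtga
C1GALT1 region, chr7:7176749-7176949: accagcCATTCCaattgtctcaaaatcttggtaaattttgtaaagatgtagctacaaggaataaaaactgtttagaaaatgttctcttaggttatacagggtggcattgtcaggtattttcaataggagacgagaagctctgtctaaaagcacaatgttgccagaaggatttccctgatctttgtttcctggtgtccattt
CDKN1A region, chr6:36676618-36676818: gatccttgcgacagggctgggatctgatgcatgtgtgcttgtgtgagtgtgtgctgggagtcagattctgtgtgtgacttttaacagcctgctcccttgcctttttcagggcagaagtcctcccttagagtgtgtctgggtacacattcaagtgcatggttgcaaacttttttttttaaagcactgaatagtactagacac
RUBCN region, chr3:197654144-197654344: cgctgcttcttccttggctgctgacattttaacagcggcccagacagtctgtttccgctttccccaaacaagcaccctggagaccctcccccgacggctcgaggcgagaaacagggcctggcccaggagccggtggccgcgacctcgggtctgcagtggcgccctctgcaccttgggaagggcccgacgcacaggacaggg
The ATF3 and C1GALT1 windows each hold a TEAD match and the IGFL3 window an AP-1 match. No searched motif occurs in the CDKN1A or RUBCN windows.

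Over all summit windows, the p53 decamer occurred in 43 of the 459 gained regions (9.37%), in 3 of the 61 lost regions (4.92%), in 6.26% of the regions called in all 4 lists and in 5.52% of all regions. The AP-1 motif occurred in 4.58% of gained windows and 4.23% of all windows. For TEAD the shares were 12% and 10.1%. Away from start sites the p53 decamer was found in 8.93% of gained and 6.31% of all windows. The GC box was found in 9.59% of gained windows and 18.2% of all windows, and the median GC content was 47.3% and 53.7%. No gained or lost window held the CRE motif, which was present in 0.107% of all windows. The FOX motif was found in 2.4% and 2.02%, and the E-box in 1.96% and 2.93%. These shares are descriptions, and base composition and promoter share differ between the sets.

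Of the 61 lost regions, 27 lay at start sites. Ordered by the lower of the UNT folds, the first lay 46.4 kb from RUBCN, which encodes a negative regulator of autophagy, with 8.90 in UNT A (28 reads) and 6.43 in UNT B (12 reads) and no peak in either OXPT library. The region over a start of FNDC3A had 7.13 and 6.39. Starts of CLN8 (6.44 and 5.37), STT3A, a catalytic subunit of oligosaccharyltransferase (5.12 and 5.57), CMC1 (4.76 and 5.06), ELP2, a subunit of Elongator (5.73 and 4.67), and PRKACB, a catalytic subunit of protein kinase A (4.61 and 4.66), followed. In CDKN1B, which encodes the cyclin-dependent kinase inhibitor p27, a region of 445 bp in an exon, 2.57 kb from its start, had 4.70 in UNT A and 4.60 in UNT B. The CDKN1B start itself was called in UNT A at 6.73, in OXPT A at 4.71 and in OXPT B at 3.38, so the loss concerned one stretch of the locus.

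Depth limited which folds could be called. Of the 459 gained regions, 127 (27.7%) had folds above 3.96 in both OXPT libraries, the lowest fold callable in UNT B at low background. Of the 61 lost regions, 42 (68.9%) had folds above 3.58 in both UNT libraries, the corresponding value of OXPT B. At −log10 q of at least 10, UNT B kept 20 peaks, and 14 regions were gained and 1 was lost.

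The gained regions were also examined in the 12 libraries of the other groups, namely FBXW7-/- cells with control siRNA (esiCT) and wild-type (WT) cells with esiCT or esiHDAC4. These libraries were not used to choose the regions. In each library the share of gained regions that was called was divided by the share of all 29044 regions called there. That scales for list length only in part, since a library that calls fewer of all regions can reach a higher ratio. This ratio was higher with OXPT in 6 of 6 pairs. In FBXW7-/- esiCT cells it was 0.495 in UNT A and 1.2 in OXPT A, and 0.897 in UNT B and 1.82 in OXPT B. In WT esiHDAC4 cells it was 0.759 and 1.46 in pair A and 0.888 and 1.69 in pair B. The lost regions gave no such order: their ratio was higher without OXPT in 3 of 6 pairs and higher with it in the other 3. Within FBXW7-/- esiCT cells it was 0.955 in UNT A and 1.30 in OXPT A.

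**Figure D3:**
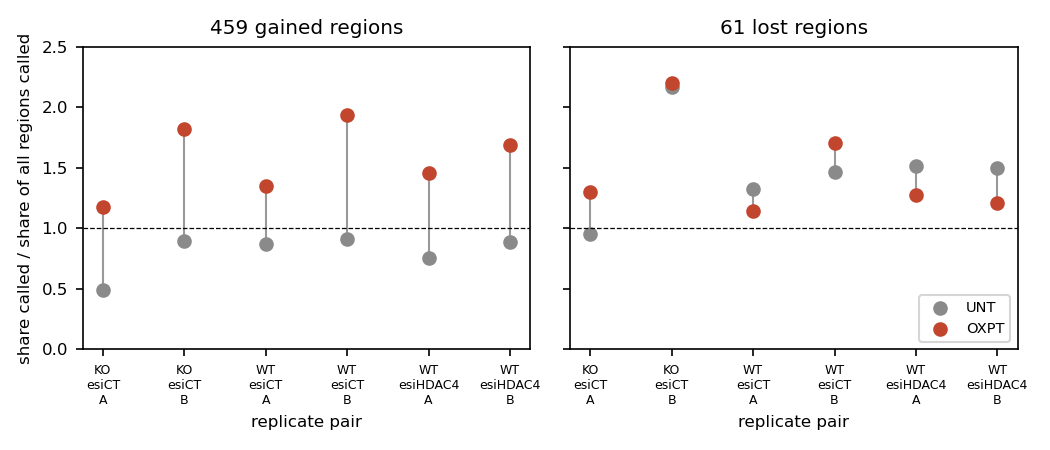
Share of the gained (left) and lost (right) regions called in each of the 12 other libraries, divided by the share of all merged regions called there, with grey points for UNT and red for OXPT (KO, FBXW7-/-) and 1 pair of points for each replicate pair. The OXPT point lies above the UNT point in 6 of 6 pairs for gained regions and in 3 of 6 for lost regions.

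In number, 65 of the 459 gained regions were called in at least 4 of the 6 other OXPT libraries and in at most 1 of the 6 other UNT libraries, and 2 showed the reverse. The 65 included, chosen after their values were seen, a region 0.683 kb from a start of PLK3, a p53-induced kinase gene (4.70 in OXPT A and 5.17 in OXPT B). Others were intergenic and are named by the nearest gene only. These lay 31.6 kb from BCL2A1, a survival member of the BCL2 family (4.35 and 4.48), 61.2 kb from BIRC3, an inhibitor of apoptosis gene (4.44 and 4.37), and 379 kb from TGFBR2, a TGF-beta receptor gene (3.99 and 5.74). The BCL2A1 start had no peak in the 4 libraries, and the BIRC3 start had one in UNT A alone (2.90). No lost region was called in at least 4 other UNT libraries and at most 1 other OXPT library. Of the gained regions, 26 were called in none of the 12 other libraries. How many of all merged regions show these patterns was not counted, so the numbers describe the gained and lost regions only.

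Genes of p53-driven arrest and feedback held 6 of the gained regions. They lay at or near the starts of PLK3, MDM2, XPC, ZMAT3, PLK2 and SESN1, and made up 8.96% of the 67 regions assigned to the 18 genes of the list, beside 1.58% over all regions. None of the 67 was lost. This gained share was the highest among the gene lists. It was 5.56% (2 of 36 regions) for platinum transport and thiol genes and 5.26% (1 of 19) for NF-kB inflammatory genes. For p53 death genes it was 2.33% (1 of 43), and for ribosomal protein genes 0%. At MDM2, the ubiquitin ligase that degrades p53, the gained region lay 0.349 kb from a start, with 4.21 in OXPT A and 4.0 in OXPT B, while the neighbouring region over a start had 5.63 in UNT A and 5.55 in OXPT A. At SESN1, a stress-response gene, the folds were 4.20 and 4.90, and at ZMAT3, an RNA-binding p53 target, 3.55 and 3.83. XPC, which recognizes damaged DNA for nucleotide excision repair, had 4.35 and 4.17, and the LSM3 start had the same folds. The region 1.2 kb from a start of PLK2 had 6.14 and 3.38. XPC aside, these genes had another peak within 1 kb of a start in UNT A, at 4.23 for SESN1, 4.86 for ZMAT3, 4.89 for PLK3 and 4.69 for PLK2, so their starts as a whole were not newly listed in pair A.

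By gene start, 9554 protein-coding genes had a peak within 1 kb of a start in any of the 4 libraries. Of these, 62 were gained in both pairs (0.649%) and 19 were lost in both (0.199%). In pair A 9.05% were gained and 26.7% lost, and in pair B 18.8% were gained and 1.58% lost. The number gained in both was 1594 without UNT A, 123 without OXPT A and 855 without OXPT B, and the number lost was 2402 without UNT B, 133 without OXPT A and 32 without UNT A. With the lists at equal length 84 starts were gained and 57 lost.

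Starts of p53 death genes were listed in both libraries of pair A wherever they had a peak. Of the 16 genes 15 had a start peak, all 15 were shared in pair A, and 10 were gained in pair B, where UNT B listed none of them. The members given here were chosen after their values were seen, except BBC3 and PMAIP1. Among all genes 63.4% of starts were in both libraries of pair A and 18.8% were gained in pair B, against 100% and 66.7% here. The median log2 difference of OXPT A minus UNT A over the shared starts was 0.12 for this list, beside -0.20 over all genes. TRIAP1, which restrains apoptosome formation, had 3.75 in UNT A, 8.27 in OXPT A and 4.71 in OXPT B. AEN, an apoptosis-enhancing nuclease, had 4.56, 5.66 and 7.29. TNFRSF10B, the TRAIL receptor DR5, had 5.06, 6.43 and 6.88, and FAS had 3.96, 5.57 and 4.68. At BBC3, which encodes PUMA, the folds were 3.59, 3.92 and 4.71, so in all of these both OXPT values lay above UNT A. In other members both lay below it. PIDD1 had 6.88 in UNT A, 4.95 in OXPT A and 5.81 in OXPT B. PMAIP1, which encodes the BH3-only protein NOXA, had 4.56, 3.14 and 3.45.

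Of the 18 arrest and feedback genes, 15 starts were shared, 3 were gained and none was lost in pair A, and 9 were gained in pair B. The gained ones in pair A were SESN2 (3.23), TIGAR (3.67) and XPC (4.35). Over all genes 63.4% of starts were shared, 9.05% gained and 26.7% lost in pair A, and 18.8% were gained in pair B. Chosen after their values were seen, PPM1D and GADD45A differed in order. PPM1D, the phosphatase WIP1, had 4.33 in UNT A, 4.13 in UNT B, 6.48 in OXPT A and 4.92 in OXPT B, so both OXPT values lay above both UNT values. GADD45A had 6.72 in UNT A, 5.15 in OXPT A and 3.73 in OXPT B, below UNT A in both. Over the shared starts of the list the median log2 difference in pair A was -0.01, beside -0.20 over all genes.

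**Figure D4:**
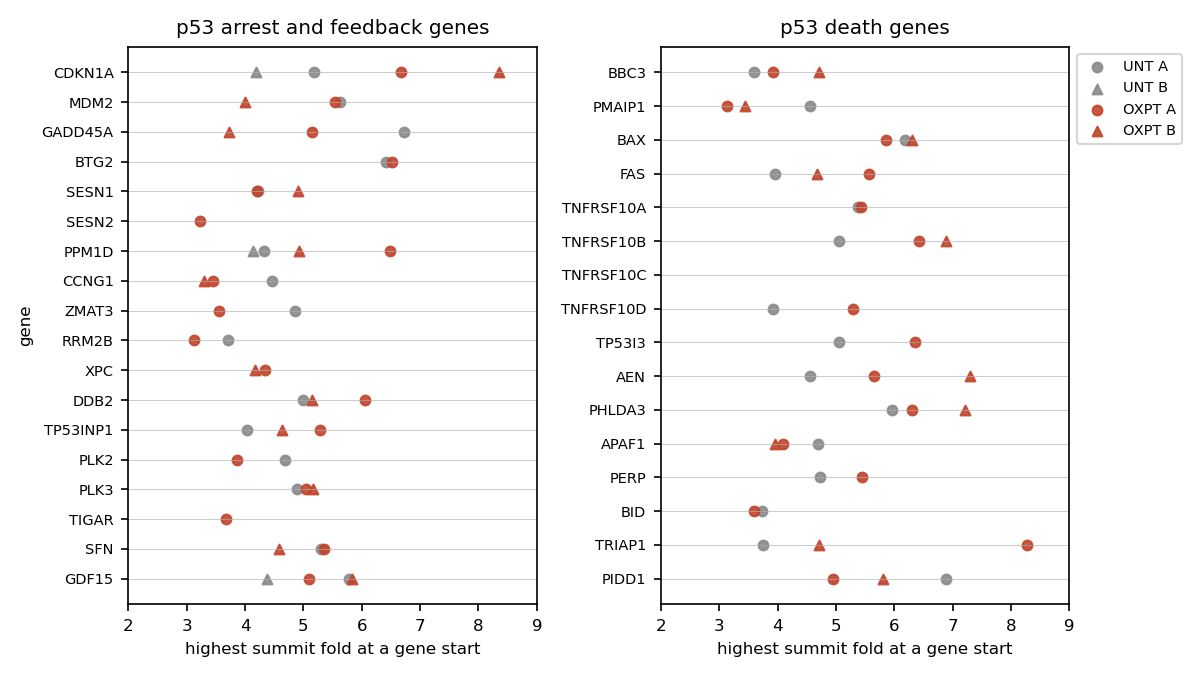
Highest summit fold of a peak within 1 kb of a gene start for the 18 p53 arrest and feedback genes and the 16 p53 death genes, circles for pair A and triangles for pair B, grey for UNT and red for OXPT; a missing point is a start with no peak in that list. UNT B has a point at 3 of the arrest genes, CDKN1A, PPM1D and GDF15, and at none of the death genes.

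Other gene lists held few starts that changed in both pairs, where 0.649% of all starts were gained and 0.199% lost. Among nucleotide excision, crosslink and mismatch repair genes, 2 of 25 with a start peak were gained in both pairs, XPC and XRCC3, a homologous recombination gene (3.14 in OXPT A and 4.38 in OXPT B). The starts of LSM3 and ZFYVE21 had the same folds as XPC and XRCC3, respectively, so these peaks are not particular to the repair genes. In the oxidative phosphorylation list 1 of 29 was gained in both pairs, SDHA of complex II (3.40 and 3.98). No member of the other lists was gained or lost at its start in both pairs. Immediate early genes had 12 of 15 starts shared in pair A. Of 17 AP-1 and ATF genes 5 were lost in pair A, JUN, JUNB, ATF7, MAFF and MAFK, with UNT A folds from 3.69 for JUN to 5.47 for MAFF; this share of 29.4% was near the 26.7% of all starts lost in pair A. Class IIa HDAC and MEF2 genes had 9 of 10 starts shared and 0 lost in pair A, beside 63.4% and 26.7% of all starts. Ribosomal protein genes, which are active in every cell, had 25 of 26 starts shared in pair A. In pair B 12 of them were gained (46.2%), beside 18.8% of all starts. UNT B listed none of them, so a start gained in pair B was also common among genes that every cell uses.

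The study's own SE gene groups were chosen on libraries of this series and are no independent evidence. In the first group (G1), 47 of 58 starts were shared in pair A, 11 were lost and 0 gained. In the second (G2), 17 of 23 were shared, 5 lost and 1 gained. The shared part was 81.0% in G1 and 73.9% in G2, beside 63.4% of all starts. The lost part was 19.0% and 21.7%, beside 26.7%, and the gained part 0% and 4.35%, beside 9.05%.

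Among starts gained in both pairs and chosen after their values were seen, TDP1, which removes topoisomerase I adducts from DNA, had 3.41 in OXPT A and 5.97 in OXPT B. The EFCAB11 start had the same folds as TDP1. PIK3R1, the regulatory subunit of PI3-kinase, had 4.87 and 4.91. E2F7, a repressor of E2F targets, had 2.42 and 4.42. Starts lost in both pairs included HK2, hexokinase 2 (3.11 in UNT A and 5.44 in UNT B), MAPK3, which encodes ERK1 (4.52 and 5.94), and MKNK2 (4.95 and 4.62).

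For the 719 regions called in all 4 lists the summit folds could be tested. After centring each library on its median, limma with the replicate letter as block called 0 regions higher and 0 lower with OXPT at an adjusted p of 0.05 (0% of 719 in each direction). At an unadjusted p under 0.05, 22 were higher and 20 lower; without centring these were 13 and 42, and 1 region was called lower. Fits that left out a library had no replicate block, and their calls are not given. The uncentred median log2 difference was -0.22 in pair A and -0.01 in pair B. The log2 differences had an SD of 0.35 in pair A and 0.34 in pair B, whereas the counting error of a single difference was 0.39 and 0.55 (median). The spread between regions was thus no larger than the counting error, among regions that had to be called in all 4 lists. That selection leaves out low folds, so the comparison cannot show how much regions vary beyond counting. Over these regions the differences of pair A and pair B had a Spearman rho of 0.10 and a Pearson r of 0.13.

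CDKN1A, which encodes the cyclin-dependent kinase inhibitor p21 and is a canonical p53 target, had the smallest p of all 719 regions. The region over its start (chr6:36675388-36678439) had a summit fold of 3.49 in UNT A, 4.18 in UNT B, 6.68 in OXPT A and 8.35 in OXPT B. Both OXPT values lay above both UNT values. The centred log2 difference was 1.07 ± 0.20 (SE), with a limma p of 0.000408 and a Benjamini-Hochberg adjusted p of 0.293. A second region 0.154 kb from a CDKN1A start did not share this order, with 5.19 in UNT A, none in UNT B, 4.98 in OXPT A and 3.98 in OXPT B. In FBXW7-/- esiCT cells the first region had 4.44 and 6.29 in UNT and 6.84 and 9.60 in OXPT. An SE over CDKN1A was listed in OXPT B and in none of the other 3 libraries.

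BCL2L1, which encodes the survival protein BCL-XL, had 4 regions in the fit. The intronic region 9.82 kb from its start had 3.54 in UNT A, 4.55 in UNT B, 5.31 in OXPT A and 8.23 in OXPT B (log2 difference 0.82 ± 0.20, limma adjusted p = 0.339). Of the other regions, the one over the start had 4.28, 4.60, 5.73 and 6.33, and that 21.8 kb away had 4.70, 4.59, 6.75 and 6.56. The remaining region had 6.05, 5.57, 6.41 and 5.27, with overlapping groups. An intron of CD109, a TGF-beta co-receptor, had 4.51 in UNT A, 4.18 in UNT B, 7.31 in OXPT A and 7.43 in OXPT B (0.86 ± 0.20, limma adjusted p = 0.307). The intergenic region 86.8 kb from MTHFD1L had 3.95, 3.97, 5.66 and 6.54 (0.72 ± 0.20, limma adjusted p = 0.527). The regions near HGSNAT (0.93) and FOXD4L5 (0.75) complete the 6 with the smallest p in this direction. FOXD4L5 belongs to a family with near-identical copies, but this region lay 1946 kb from its start and is named by the nearest gene only. Whether reads of the region also map elsewhere was not tested.

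In the other direction, the region 0.283 kb from a start of ACBD6 had 6.11 in UNT A, 6.52 in UNT B, 2.16 in OXPT A and 4.03 in OXPT B, a log2 difference of -1.0 ± 0.22 (limma adjusted p = 0.307). MSI2, an RNA-binding protein gene, had 4.76, 5.45, 2.87 and 3.73. Regions 248 kb from SPATA31A6, 41.2 kb from MMEL1 and 576 kb from NYAP2 followed with log2 differences between -0.55 and -0.50. SPATA31A6 also has near-identical copies, and whether reads of that distant region map elsewhere was not tested either. The UNT and OXPT folds of ACBD6 and MSI2 did not overlap, as at CDKN1A, yet neither passed the adjusted threshold.

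**Figure D5:**
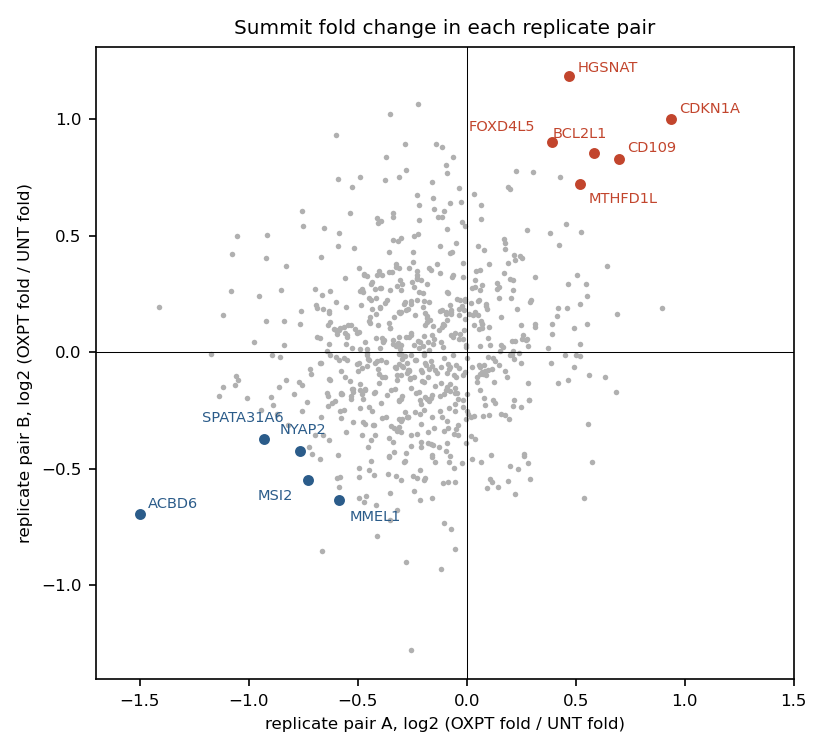
Log2 ratio of OXPT to UNT summit fold in pair A (x axis) and pair B (y axis), before centring, for the 719 regions called in all 4 lists; each point is a region, with the regions named in the text in red (higher with OXPT) and blue (lower). CDKN1A lies furthest towards the upper right, and the cloud as a whole shows little relation between the pairs (Spearman rho 0.10).

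RNF43, which encodes a ubiquitin ligase that removes Frizzled receptors, was covered by an SE in all 4 libraries and had 4 regions in the fit. The region 11.3 kb from its start had 3.88 in UNT A, 3.81 in UNT B, 4.79 in OXPT A and 6.50 in OXPT B (0.64 ± 0.20, limma adjusted p = 0.705). One of the regions over a start had 8.26, 6.54, 6.15 and 5.26 (-0.27 ± 0.20, limma adjusted p = 0.78). The locus thus held regions with opposite signs and none past the threshold. In the region over the MYC start the folds were 6.76 in UNT A, 5.17 in UNT B, 3.65 in OXPT A and 4.42 in OXPT B (-0.46 ± 0.21, limma adjusted p = 0.705), with OXPT below UNT in both pairs. Peak and SE listing at the MYC locus did not follow this order. It held 5 peaks in UNT A, 1 in UNT B, 6 in OXPT A and 3 in OXPT B, and an SE was listed in OXPT A alone.

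Whether the response to OXPT differed from that without HDAC4 silencing was tested against FBXW7-/- esiCT cells over 571 regions called in all 8 libraries. Limma called 0 regions (0%), with 17 higher and 17 lower at an unadjusted p under 0.05. For CDKN1A the difference of the responses was 0.50 ± 0.30 (limma adjusted p = 0.821). For CD109 it was 0.83 ± 0.30 (limma adjusted p = 0.622), with centred esiCT differences of 0.05 in pair A and -0.04 in pair B. A difference between the responses was not detectable at this depth.

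The SE lists merged into 678 regions, of which 55 were listed in all 4 libraries, 10 were gained in both pairs (1.47%) and 1 was lost in both (0.147%). The number gained was 92 without UNT A, 25 without OXPT A and 119 without OXPT B. The number lost was 2 without UNT A and 258 without UNT B. In pair A, 121 SE regions were gained, 268 lost and 271 shared. In pair B, 116 were gained, 2 lost and 59 shared.

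The gained SEs lay at or near NR4A2, HM13, TRIOBP, CDCP1, TMOD3, SFR1, SLC38A2, SP1, FAM241A and the unnamed gene ENSG00000289761, and spanned 7.46 to 18.3 kb; SP1 and FAM241A, the shortest, were named after their values were seen. NR4A2, an orphan nuclear receptor of the immediate early class, had an SE of 10.5 kb over its start. Its highest summit fold was 7.61 in UNT A, none in UNT B, 6.68 in OXPT A and 4.58 in OXPT B, and peaks covered 9.22 kb of it in UNT A and 8.62 kb in OXPT A. The locus thus had peaks in UNT A without being listed as an SE. The same held at SP1, which encodes a GC-box binding factor, with 9.26 in UNT A, 5.91 in OXPT A and 6.38 in OXPT B, and at HM13, a signal peptide peptidase, with 7.85, 5.67 and 6.65 and 7.42 in UNT B. CDCP1, a transmembrane substrate of SRC kinases, had 4.25 in UNT A, 4.95 in UNT B, 4.40 in OXPT A and 6.79 in OXPT B. All 10 gained SEs overlapped a peak in UNT A and 7 of them one in UNT B. In FBXW7-/- esiCT cells, 9 of the 10 were listed in OXPT A and 10 in OXPT B, against 6 in UNT A and 4 in UNT B. Over all 678 SE regions those lists held 72.1%, 46.8%, 36.6% and 31.1%.

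The lost SE covered the start of ONECUT3, a homeobox transcription factor gene, over 11.4 kb. Its summit fold was 10.6 in UNT A, 7.11 in UNT B, 7.20 in OXPT A and 10.6 in OXPT B, so the mark itself was present in all 4 libraries. In FBXW7-/- esiCT cells the ONECUT3 SE was listed in UNT A, OXPT A and OXPT B but not in UNT B. EREG, chosen after its values were seen, which encodes the EGFR ligand epiregulin, had an SE of 34.9 kb in UNT B, OXPT A and OXPT B but not in UNT A, although UNT A had the highest fold there (8.63).

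SEs that changed in pair A alone included longer ones. Gained in pair A alone, with no SE in pair B, the longest lay near GSE1 (48.7 kb), GADD45A (40.1 kb), CPN2 (34.9 kb), KITLG (34.0 kb) and CAPN2 (31.8 kb). GADD45A encodes a p53- and stress-induced protein of arrest and repair. The SE named after GADD45A lay 28.2 kb from its start among intronic regions, so the name gives the nearest start only. Peaks covered 1.64 kb of this SE in UNT A and 4.52 kb in OXPT A, with none in UNT B or OXPT B. At the GADD45A start itself the fold was 6.72 in UNT A and 5.15 in OXPT A. At KITLG, the ligand of KIT, 5 peaks in UNT A became 10 in OXPT A. Lost in pair A alone were SEs near KCNK3 (45.4 kb), CAMK2D (44.9 kb), TRIB1 (43.3 kb), EIF1 (42.9 kb) and ELF3 (42.2 kb). CAMK2D encodes a subunit of calcium/calmodulin-dependent kinase II, and its SE held 15 peaks in UNT A and 5 in OXPT A with highest folds of 7.60 and 7.12. ELF3 is an epithelial ETS factor, and peaks covered 7.89 kb of its SE in UNT A and 4.86 kb in OXPT A. Of the 257 SEs listed in UNT A alone, 56.4% were listed in FBXW7-/- esiCT OXPT A and 14.4% in UNT A of those cells, beside 58.7% and 11.9% of the 109 listed in OXPT A alone.

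Gained in pair B alone, the longest SEs were those at CDKN1A (15.4 kb), near VCPKMT (14.7 kb), at FAT1 (12 kb), in VMP1 (6.22 kb) and near EHF (5.58 kb). At CDKN1A 1 peak was listed in UNT B and 7 in OXPT B, covering 0.562 and 3.58 kb. In pair A the locus had 6 peaks in UNT A and 5 in OXPT A, so more peaks with OXPT were seen in pair B only, where UNT B was the shallowest library. EHF, an epithelial ETS factor, had folds of 3.57 in UNT A, 6.53 in OXPT A and 5.97 in OXPT B, with no peak in UNT B. The single SE lost in pair B alone, near PDHX (3.39 kb), still overlapped 2 peaks in OXPT B.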

How the data were processed

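H3K27ac ChIP-seq lists of 4 libraries were used, with 12 further libraries for comparison; 4 input samples were not analysed here. The submitters' processing notes name Trimmomatic 0.39, Bowtie2 2.4.4, SAMtools 1.18 and MACS2 2.2.7.1 with hg38, and per the study's methods SEs were ranked with ROSE. In the deposited peak lists the authors give each peak a summit fold (ratio of pileup to background), a −log10 p-value, a −log10 q-value and an integer score derived from q. The deposited SE lists hold positions only. No read counts were used, so the study's count model was replaced by limma 3.58.1 on log2 fold with its design of replicate plus condition.

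Lists were merged by 1 bp overlap and annotated with protein-coding genes of GENCODE (start site: within 1 kb). Whole summit reads were solved from fold and p where −log10 p was below 60, within 0.01, for at least 99.95% of such peaks in each of the 4 libraries. Reads without molecular identifiers are not independent molecules, so the counting errors cover counting only. Named regions are the 8 gained and 8 lost with the highest lower fold, the SEs by span, the 6 smallest limma p in each direction, and list genes changed in both pairs, besides FBXW7, HDAC4, CDKN1A, MDM2, BBC3, PMAIP1, MYC, RNF43 and NR4A2; exceptions are stated, and 2 regions that the rule names are not reported here. The comparison, gene lists and tests were chosen with earlier results of these data known. Whether the SE lists had passed the study's H3K4me1 filter is not known here. Of 444 listed symbols 441 matched. The scripts were tested on simulated data. Summit windows were read from hg38; motifs were searched in both strands of 201 bases.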

Additional observations from a re-analysis of the deposited data

Results flagged for a closer look

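At the region near MTHFD1L, the centred log2 difference of OXPT minus UNT was 0.72 ± 0.20 in FBXW7-/- esiHDAC4 cells, whereas it was -0.54 in pair A and -0.13 in pair B of FBXW7-/- esiCT cells. The difference between the responses was 1.02 ± 0.33 (log2, SE, limma adjusted p = 0.615), so it did not pass the correction. It was singled out because the libraries of the esiHDAC4 and esiCT groups moved in opposite directions; the folds in esiCT cells were 9.47 in UNT A, 5.83 in UNT B, 6.88 in OXPT A and 5.68 in OXPT B.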

How the results depend on the processing

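The lists differ in depth and length, UNT B listed 0 of 26 ribosomal protein starts with a peak, and with 2 libraries per group every test is limited. Of 75 recomputed values, 43 stayed close to the reported one (counts within 1.5 times) and 32 did not. Leaving out each library in turn, regions gained ranged from 469 to 7083 and regions lost from 82 to 10411. Gene starts gained ranged from 67 to 1594 and starts lost from 27 to 2402. SEs gained ranged from 12 to 119 and SEs lost from 1 to 258. The limma fits of this kind had a single library in a group and no replicate block, so their calls are not given. When a list had to cover 50% of a region, 300 were gained, 33 lost and 0 SEs lost. At −log10 q of at least 10, 14 regions were gained and 1 lost, 3 starts gained and 0 lost; limma, with 13 regions left to test, called 3 higher, and the Spearman rho between pairs was 0.43. At equal list length, 158 regions were gained and 57 starts lost. With the mean fold of a region's peaks, limma called 4 higher and 1 lower, and without centring 1 lower. The cause of these shifts was not tested, except that stricter thresholds and fewer libraries act by construction. Without the replicate block, limma called 0 higher and 0 lower (15 and 3 at an unadjusted p under 0.05), and 0 for the difference from esiCT, so the block changed no call; deviations of same-letter libraries from their group means had a correlation of 0.30 over 719 regions.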

Other observations

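Outside chromosomes 1 to 22 and X, the peak lists held 39 peaks in UNT A, 14 in UNT B, 51 in OXPT A and 34 in OXPT B; with these contigs included, 467 regions were gained and 61 lost.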
